A study of Homo sapiens with 12 samples.

Results

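The genes described here are 35 members of the Fanconi anaemia and homologous recombination pathways, chosen by name. The choice was made with earlier results of these data known, and NABP1 entered because the study names it for HT-29. Each gene was represented by the transcript cluster (the set of array probes for a locus) that carries its single gene symbol in the platform annotation. Of the 35 genes, 31 had such a cluster, 1 each, among 67528 clusters on the array, 23781 of which carry a single symbol. FANCA, FANCD2, BRCA2 and RBBP8 were not analysed here. Signals were read on 12 Human Transcriptome Array 2.0 chips, 3 for each of 4 groups. These were HT-29 at 10000 ng/mL folic acid (FA), HT-29 at 0 ng/mL FA, SW480 at 10000 ng/mL FA and SW480 at 0 ng/mL FA, each after 72 h. Both cell lines are long established and derive from human colon adenocarcinomas, so that each stands for 1 tumour. Untreated cells were kept without FA. FA was dissolved in NaOH while the arrays are labelled only as treated or untreated, so FA and its solvent cannot be told apart. Replicates are labelled biological. The protocol describes triplicate seeding in the wells of a plate without saying which wells gave the arrays of a group. A p-value reflects how far the arrays scatter within their groups, pooled over all 4 groups and drawn toward the spread of all clusters. This scatter may be technical.

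The Fanconi pathway repairs crosslinks between the strands of DNA. Its core complex, with the ubiquitin ligase FANCL and the conjugating enzyme UBE2T, attaches ubiquitin to the FANCI-FANCD2 pair, which recruits nucleases through the scaffold SLX4. Homologous recombination then restores the broken strand from the sister copy. The MRE11-RAD50-NBN complex, EXO1 and the helicase BLM trim the ends, BRCA1-BARD1 and PALB2 bring in the recombinase, and the recombinase paralogues, RAD52 and RAD54L assist strand exchange. ATM and ATR are the kinases that sense the damage and CHEK1 and CHEK2 relay it. Folate supplies carbon units for making thymidine, and cells short of it insert uracil into DNA, whose repair can leave breaks.

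Promoters were taken from RefSeq (GRCh38.p14) as the 250 bases before and 50 after a gene's start, and 29 of the 31 genes had at least 1. They were searched on both strands for letters that genes of DNA replication and the cell cycle often carry. The E2F letters (GCGGGAA or GCGCGAA) stood in promoters of 15 of the 29 genes (51.7%), against 10.2% of 27305 genes with a promoter. The CCAAT box (CCAAT) stood in 14 (48.3%), against 39.7%, the ETS letters (CCGGAAG) in 8 (27.6%), against 12.2%, and the CHR letters (TTTGAA) in 4 (13.8%), against 18.2%. A match is a description of the letters and no evidence of binding. The promoters below belong to the 4 genes with the largest differences between the lines and to CHEK2, the gene that differed in the opposite direction. Capitals mark any of these motifs on either strand.
FANCB, chrX:14873020-14873319, minus strand: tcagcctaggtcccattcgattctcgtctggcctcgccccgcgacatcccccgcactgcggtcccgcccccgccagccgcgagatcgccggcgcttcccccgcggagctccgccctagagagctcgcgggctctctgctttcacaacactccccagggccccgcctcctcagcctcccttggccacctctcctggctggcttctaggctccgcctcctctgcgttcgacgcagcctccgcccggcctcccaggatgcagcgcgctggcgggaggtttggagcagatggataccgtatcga
RAD51C, chr17:58692323-58692622, plus strand: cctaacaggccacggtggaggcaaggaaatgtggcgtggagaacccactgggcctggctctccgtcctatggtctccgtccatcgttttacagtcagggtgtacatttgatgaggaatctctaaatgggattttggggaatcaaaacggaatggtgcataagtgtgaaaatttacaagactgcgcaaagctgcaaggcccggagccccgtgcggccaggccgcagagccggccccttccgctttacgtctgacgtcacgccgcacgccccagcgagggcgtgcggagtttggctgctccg
ATR, chr3:142578684-142578983, minus strand: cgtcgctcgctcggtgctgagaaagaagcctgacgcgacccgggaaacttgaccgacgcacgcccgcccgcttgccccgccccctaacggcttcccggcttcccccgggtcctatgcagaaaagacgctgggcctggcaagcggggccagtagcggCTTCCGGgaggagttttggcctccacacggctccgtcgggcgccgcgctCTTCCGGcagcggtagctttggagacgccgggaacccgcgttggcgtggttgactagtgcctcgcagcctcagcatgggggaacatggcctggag
BARD1, chr2:214809634-214809933, minus strand: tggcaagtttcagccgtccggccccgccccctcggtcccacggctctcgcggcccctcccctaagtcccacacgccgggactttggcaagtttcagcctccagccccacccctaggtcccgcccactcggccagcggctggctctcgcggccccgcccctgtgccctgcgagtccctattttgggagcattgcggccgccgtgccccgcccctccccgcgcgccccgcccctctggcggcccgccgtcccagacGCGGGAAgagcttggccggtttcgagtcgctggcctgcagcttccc
CHEK2, chr22:28741771-28742070, minus strand: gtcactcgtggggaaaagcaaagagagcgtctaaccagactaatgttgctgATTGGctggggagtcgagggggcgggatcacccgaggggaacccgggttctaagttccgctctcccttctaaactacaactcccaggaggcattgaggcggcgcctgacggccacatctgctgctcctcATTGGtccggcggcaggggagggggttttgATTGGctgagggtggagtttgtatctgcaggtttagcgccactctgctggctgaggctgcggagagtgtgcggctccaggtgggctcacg

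FANCB and RAD51C held none of the motifs in the windows shown, ATR held the ETS letters at 2 places, BARD1 held the E2F letters once and CHEK2 held the CCAAT box at 3 places, each on the opposite strand. Of the 17 genes called lower in HT-29 at both FA levels, 8 had the E2F letters. Among the 11 genes with a promoter that were not called at both levels, 7 had them.

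The libraries were first compared as a whole. The arrays of untreated HT-29 replicates 1 and 2 resembled the treated HT-29 arrays, while untreated HT-29 replicate 3 stood apart. Its median signal was 4.75 (log2), beside a range of 4.30 to 4.40 for the remaining arrays of that line. SW480 medians lay between 4.40 and 4.58. It correlated with the other HT-29 arrays at 0.944 to 0.954 over all clusters, whereas these correlated with each other at 0.988 to 0.995. Results of the repair genes that involve this array are therefore given with and without it. The colon epithelial markers EPCAM, KRT8 and KRT18 had mean log2 signals over 12 in every group. KRT20 averaged 13.4 in HT-29 with FA and 13.2 without, against 3.71 in SW480 with FA and 3.78 without, and CDX1 lay at 3.75 to 4.11 in all 4 groups. CDH1 averaged 13.47 in HT-29 with FA and 12.61 without, against 7.71 and 8.21 in SW480. VIL1 averaged 8.05 and 7.59 in HT-29, against 5.58 and 5.56 in SW480. Across the 4 groups KRT19 lay at 10.95 to 13.38 and CDX2 at 4.49 to 5.53. Markers of fibroblasts (5), leukocytes (3 measured) and endothelium (3) averaged 3.81 to 4.42 on every array.

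In untreated HT-29 replicate 3, 27 of the 31 repair genes lay below the mean of replicates 1 and 2, 2 were higher and 2 were equal. The median deviation was -0.52 on the log2 scale and 9 genes were lower by more than 1. The helicase BLM deviated most, with 7.02 in replicate 3 and 9.02 in both others, followed by FANCL (7.86, against 9.61 and 9.33) and RAD50 (9.43, against 10.92 and 10.92). Other clusters of similar signal moved the same way on this array. In bins of signal over all clusters, the median deviation was 0.40 for clusters below 4 (log2), 0.00 between 5 and 6, -0.69 between 8 and 9 and -0.89 between 10 and 11. Of the 31 genes, 29 lay within the 10th to 90th percentile of their bin, with PALB2 above and BLM below it, and 22 lay below its median. The low values of the repair genes on this array were thus shared with most genes of high signal, and what sets this array apart was not tested.

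**Figure D1:**
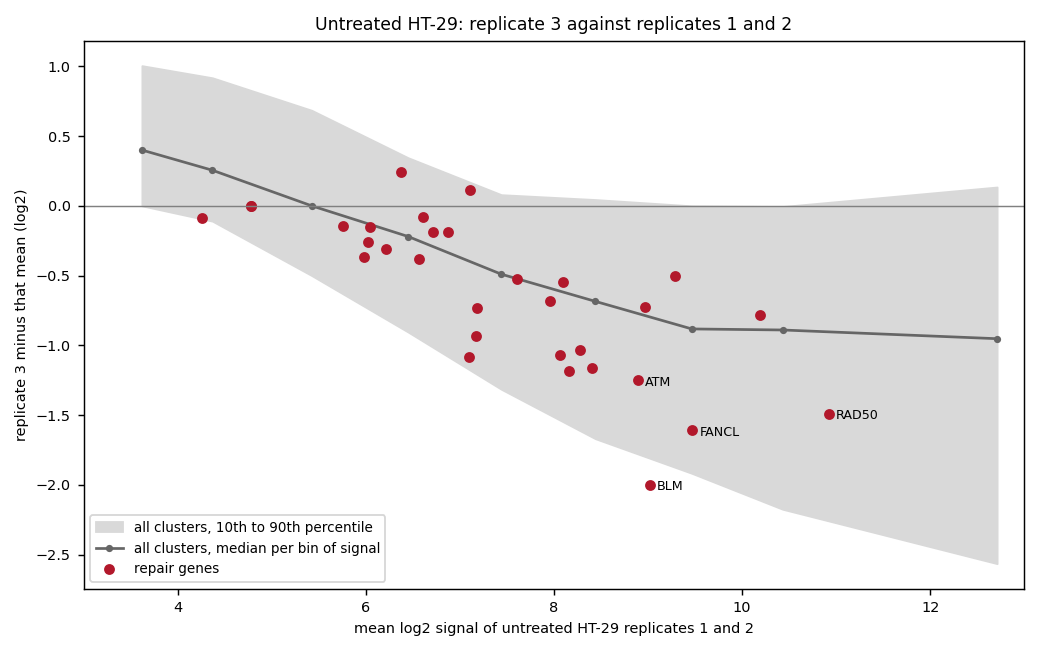
Deviation of untreated HT-29 replicate 3 from the mean of replicates 1 and 2 (y axis, log2) against that mean (x axis, log2 signal). Red points are the 31 repair genes, the line joins the medians of all clusters in bins of signal and the shaded band spans their 10th to 90th percentile. The deviation falls with signal for all clusters, and 22 of the 31 genes lie below the median of their bin.

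The first comparison asked how the repair genes differ between the cell lines. Each difference is the mean log2 signal in HT-29 minus that in SW480, tested with limma over all 12 arrays and adjusted over the 67528 clusters by Benjamini and Hochberg. A gene is called at an adjusted p under 0.05. This fit on all 12 arrays is named the main fit below. With FA, 17 genes were lower in HT-29 and 1 was higher. At this threshold 41.1% of all clusters were called, 26% as lower and 15.1% as higher. Without FA the same 18 genes were called in the same directions, beside 42.7% of all clusters, 24.7% as lower and 18% as higher. The comparisons with and without FA used different arrays and 1 shared estimate of the spread. The 18 genes make up 58.1% of the 31. Single-symbol clusters within the same range of mean signal (13840) were called in 65.8% with FA and in 66% without FA. Those called as lower were 47.3% and 48.1%, against 54.8% of the repair genes. These shares lie close together, so the count of calls is not a result about the repair genes. Their median difference was -0.59 with FA and -0.75 without FA. For clusters of the same signal range it was -0.28 and -0.30, and over all clusters -0.07 and -0.01.

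**Figure D2:**
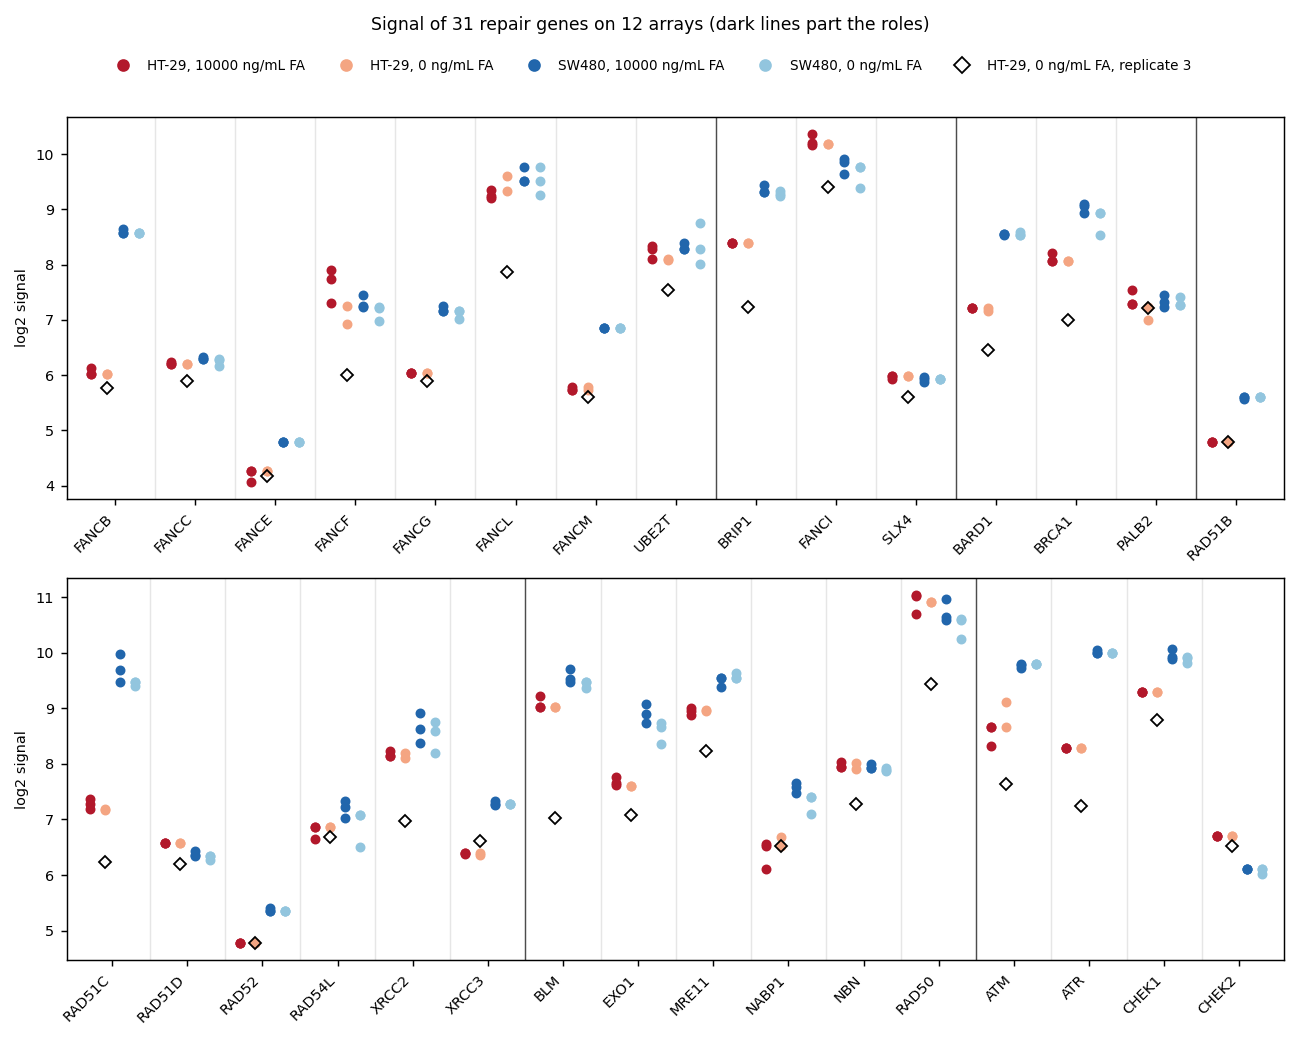
Log2 signal (y axis) of the 31 repair genes (x axis) on each of the 12 arrays, grouped by role. Filled points are arrays coloured by cell line and FA level, and the open diamond is untreated HT-29 replicate 3. FANCB, RAD51C and ATR show the widest gaps between the lines, and CHEK2 is higher in HT-29 on all arrays.

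Leaving out untreated HT-29 replicate 3 raised the count of calls to 22 in each comparison, with 19 lower and 3 higher in HT-29 with FA, and 18 lower and 4 higher without FA. The share of all clusters called rose likewise, to 57% with FA and 53.9% without FA. The median difference without FA was then -0.58. The groups of 3 arrays did not overlap for 25 genes with FA, where 67.9% of all clusters did not, and for 20 genes without FA, where 49.8% did not. Quantile normalization between all 12 arrays narrowed the differences: it called 16 genes as lower and 6 as higher with FA, beside 43.8% of all clusters, and 16 and 5 without FA, beside 46%. The genes called higher at both levels were CHEK2, FANCI, RAD51D, NBN and RAD50, joined by SLX4 with FA. The median difference over the 31 genes was then -0.26 with FA and -0.38 without FA, beside 0.01 and 0.02 over all clusters. None of the 18 genes changed its direction in any alternative run. The 13 genes called in both comparisons under each of 21 fits (9 with all arrays and 12 with 1 array left out) were FANCB, FANCE, FANCG, FANCM, BARD1, RAD51B, RAD51C, XRCC3, RAD52, EXO1, NABP1, ATR and CHEK2. The 21 do not include the variance of each cluster alone, the other call rules or the pair of fits on equal values. Only FANCG, RAD51C, EXO1 and NABP1 of the 13 had no group with 1 value on all 3 arrays. The rest dropped out when such clusters were left out. Of the 5 called genes outside the 13, median centring left BRCA1 (adjusted p = 0.0701), BRIP1 (0.0582) and MRE11 (0.166) without a call with FA, and quantile normalization did so for MRE11 (0.0848). Without FA, separate fits left BRCA1 (0.0632) and ATM (0.0546) without a call, and quantile normalization CHEK1 (0.0955). The variance of each cluster alone left BRIP1 (0.0935), MRE11 (0.0819), ATM (0.112) and BRCA1 (0.124) without a call without FA, and a floor on the residual SD left MRE11 without one with FA (0.0519). CHEK2 with FA and RAD51B and RAD52 without FA had an SD of 0 in both groups, so the variance of each cluster alone could not test them.

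In the Fanconi core complex 4 of 8 genes were lower in HT-29 at both FA levels. FANCB, which forms a subcomplex with FANCL, had 6.13, 6.02 and 6.02 in HT-29 with FA and 6.02, 6.02 and 5.76 in HT-29 without FA. In SW480 it had 8.57, 8.65 and 8.57 with FA and 8.57 on all 3 arrays without FA. The lines did not overlap, and FANCB was 5.82-fold lower in HT-29 with FA (log2 difference -2.54 ± 0.08, SE, adjusted p = 5.35e-09) and 6.22-fold lower without FA (-2.64 ± 0.08, adjusted p = 4.25e-09). FANCM, the translocase that anchors the core complex to DNA, had 5.73, 5.78 and 5.73 in HT-29 with FA and 5.78, 5.73 and 5.61 without FA, against 6.85 on all 6 SW480 arrays. Its difference was -1.10 ± 0.05 with FA and -1.14 ± 0.05 without. The scaffold FANCG differed by -1.16 ± 0.06 and -1.12 ± 0.06, and FANCE, which binds FANCD2, by -0.59 ± 0.06 and -0.56 ± 0.06. FANCE showed low signals near the array medians, with 4.07 to 4.26 in HT-29 and 4.79 on all 6 SW480 arrays. For FANCC, FANCF, FANCL and UBE2T the differences lay between -0.34 and 0.33 with FA and between -0.58 and -0.14 without FA, and none passed the test. With FA, FANCC and FANCL were called in separate fits (adjusted p = 0.0106 and 0.0247), with the variance of each cluster alone (0.00668 and 0.0454) and with array weights (0.0286 and 0.0491). UBE2T was called without FA once untreated SW480 replicate 3 was left out (-0.60, adjusted p = 0.0361).

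Among the FANCI-FANCD2 partners 1 of 3 genes was called. The helicase BRIP1 had 8.40 on all 3 HT-29 arrays with FA and 8.40, 8.40 and 7.24 without FA. In SW480 it had 9.31, 9.44 and 9.31 with FA and 9.34, 9.28 and 9.25 without FA. The lines did not overlap at either FA level, and the difference was -0.95 ± 0.26 with FA (adjusted p = 0.0136) and -1.28 ± 0.26 without (adjusted p = 0.00272). Without replicate 3 the difference without FA was -0.89 ± 0.05. FANCI, the partner of FANCD2, ran the other way. It had 10.21, 10.36 and 10.16 in HT-29 with FA and 10.19, 10.19 and 9.41 without FA, against 9.65, 9.86 and 9.91 in SW480 with FA and 9.77, 9.38 and 9.77 without FA. Its difference with FA was 0.44 ± 0.20 (adjusted p = 0.117) with all arrays and 0.44 ± 0.12 (adjusted p = 0.0121) without replicate 3. Without FA it was 0.29 ± 0.20 (adjusted p = 0.281) and 0.55 ± 0.13 (adjusted p = 0.00729) once that replicate was left out. With all arrays, array weights also called FANCI higher (adjusted p = 0.00237 with FA and 0.000397 without), as did quantile normalization at both levels. The nuclease scaffold SLX4 differed by 0.04 with FA and -0.07 without FA.

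Of the BRCA complexes 2 of 3 genes were called, both lower in HT-29. BARD1, the partner of BRCA1 in its ubiquitin ligase, had 7.21 on all 3 HT-29 arrays with FA and 7.21, 7.16 and 6.45 without FA. In SW480 it had 8.56, 8.55 and 8.53 with FA and 8.53, 8.53 and 8.60 without FA. It was 2.53-fold lower with FA (-1.34 ± 0.16, adjusted p = 0.000118) and 3.06-fold lower without FA (-1.61 ± 0.16, adjusted p = 3.11e-05, or -1.37 ± 0.03 once replicate 3 was left out). BRCA1 had 8.06, 8.22 and 8.06 in HT-29 with FA and 8.06, 8.06 and 6.99 without FA, against 8.94, 9.07 and 9.09 in SW480 with FA and 8.94, 8.53 and 8.94 without FA. Its lines did not overlap, with differences of -0.92 ± 0.25 with FA (adjusted p = 0.0159) and -1.10 ± 0.25 without (adjusted p = 0.00618). Without replicate 3 the difference of BRCA1 at 0 ng/mL FA was -0.74 ± 0.12. PALB2, which links BRCA1 to BRCA2, differed by 0.03 ± 0.10 with FA and -0.17 ± 0.10 without FA, and neither passed the test. Array weights called it lower in HT-29 without FA (-0.31, adjusted p = 0.0059), while quantile normalization turned that value to 0.26 (adjusted p = 0.242).

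Of the recombinase paralogues and strand exchange genes 4 of 7 were lower in HT-29. RAD51C, a subunit of both paralogue complexes, had 7.28, 7.37 and 7.18 in HT-29 with FA and 7.17, 7.18 and 6.24 without FA. In SW480 it had 9.48, 9.98 and 9.68 with FA and 9.48, 9.48 and 9.40 without FA. It was 5.41-fold lower in HT-29 with FA (-2.44 ± 0.23, adjusted p = 1.71e-05) and 6.02-fold lower without FA (-2.59 ± 0.23, adjusted p = 1.12e-05), and -2.28 ± 0.13 without FA once replicate 3 was left out. XRCC3, which pairs with RAD51C in one of these complexes, differed by -0.91 ± 0.07 with FA and -0.82 ± 0.07 without FA. RAD51B and RAD52 showed low signals. The paralogue RAD51B had 4.78 on all 6 arrays of HT-29, against a range of 5.56 to 5.60 in SW480. RAD52, an annealing protein, likewise had 4.78 on all 6 arrays of HT-29, against a range of 5.36 to 5.40 in SW480. The paralogue RAD51D ran the other way, with 0.19 ± 0.10 with FA and 0.12 ± 0.10 without FA. It was not called in the main fit and was called without replicate 3 (adjusted p = 0.00193 with FA and 0.000817 without). With all arrays, quantile normalization (0.000578 with FA and 0.00174 without) and array weights (0.000838 and 8.88e-05) also called it higher. Separate fits (0.00464) and the variance of each cluster alone (0.00879) did so with FA. XRCC2, another paralogue, differed by -0.46 with FA and -0.75 without FA, and the motor protein RAD54L by -0.40 and -0.08. In the main fit neither was called. With FA, separate fits and array weights called both (XRCC2 adjusted p = 0.048 and 0.00942, RAD54L 0.0281 and 0.00662). Without FA, array weights (0.0147) and the floor on the residual SD (0.0287) called XRCC2. XRCC2 was called without FA once untreated HT-29 replicate 1 (adjusted p = 0.0349) or 2 (0.0483) was left out, and with FA once replicate 3 was (0.0389). RAD54L was called with FA once untreated SW480 replicate 2 was left out (adjusted p = 0.0118).

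Among the genes of break ends and single strands 3 of 6 were lower in HT-29. The nuclease EXO1 had 7.65, 7.77 and 7.62 in HT-29 with FA and 7.60, 7.61 and 7.08 without FA, against 8.74, 9.08 and 8.90 in SW480 with FA and 8.74, 8.36 and 8.66 without FA. The lines did not overlap, and the difference was -1.23 ± 0.16 with FA (adjusted p = 0.000162) and -1.16 ± 0.16 without (adjusted p = 0.000242, or -0.98 ± 0.13 once replicate 3 was left out). NABP1, which binds single-stranded DNA, had 6.55, 6.11 and 6.52 in HT-29 with FA and 6.69, 6.53 and 6.53 without FA. In SW480 it had 7.59, 7.66 and 7.47 with FA and 7.41, 7.41 and 7.10 without FA. Its difference was -1.18 ± 0.13 with FA (adjusted p = 5.57e-05) and -0.72 ± 0.13 without (adjusted p = 0.00148).

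Of the MRE11-RAD50-NBN complex, MRE11 alone was called in the main fit. The nuclease MRE11 had 8.96, 9.00 and 8.88 in HT-29 with FA and 8.97, 8.96 and 8.24 without FA, against 9.39, 9.55 and 9.54 in SW480 with FA and 9.55, 9.54 and 9.64 without FA. It was lower in HT-29 at both levels (-0.55 ± 0.17 with FA, adjusted p = 0.0257, and -0.85 ± 0.17 without, adjusted p = 0.00247, or -0.61 ± 0.06 once replicate 3 was left out). The call with FA was lost when any of 5 single arrays was left out, namely HT-29 with FA replicate 1, 2 or 3 or SW480 with FA replicate 2 or 3 (adjusted p between 0.0527 and 0.0762). RAD50 had 10.69, 11.02 and 11.03 in HT-29 with FA and 10.92, 10.92 and 9.43 without FA, against 10.64, 10.97 and 10.58 in SW480 with FA and 10.61, 10.58 and 10.24 without FA. Without FA its difference was -0.05 ± 0.35 with all arrays and 0.44 ± 0.16 (adjusted p = 0.0456) without replicate 3 and 0.01 without untreated SW480 replicate 1, so its sign turned with single arrays. With FA it was 0.18 ± 0.35. Quantile normalization called RAD50 higher in HT-29 with FA (0.55, adjusted p = 0.0344) and without FA (0.52, adjusted p = 0.041), and array weights did so without FA (0.41, adjusted p = 0.017). NBN, the adaptor of the complex, differed by 0.02 with FA and -0.17 without FA and was not called. Quantile normalization called it higher in HT-29 at both levels (0.41, adjusted p = 0.000865, with FA and 0.28, adjusted p = 0.00787, without), and array weights called it higher without FA (0.12, adjusted p = 0.0377). BLM had 9.02, 9.22 and 9.02 in HT-29 with FA and 9.02, 9.02 and 7.02 without FA, against 9.47, 9.71 and 9.53 in SW480 with FA and 9.47, 9.36 and 9.47 without FA. Its groups did not overlap at either level, yet it was not called in the main fit. Without replicate 3 it was called at both levels (-0.48 ± 0.08, adjusted p = 0.000747, with FA and -0.41 ± 0.09, adjusted p = 0.00362, without FA). In the main fit the same differences were -0.48 ± 0.44 and -1.08 ± 0.44. Leaving out untreated replicate 1 or 2 instead called the difference without FA as well (adjusted p = 0.0349 and 0.0335). With all arrays, array weights called BLM lower at both levels (adjusted p = 0.00162 with FA and 0.00209 without). Separate fits (0.00874) and the variance of each cluster alone (0.0197) did so with FA, and the floor on the residual SD (0.0128) without FA.

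All 4 kinases were called, 3 as lower in HT-29 and CHEK2 as higher. ATR, the kinase of stalled replication forks, had 8.28 on all 3 HT-29 arrays with FA and 8.28, 8.28 and 7.25 without FA, against 9.99, 10.05 and 9.99 in SW480 with FA and 9.99 on all 3 arrays without FA. It was 3.32-fold lower in HT-29 with FA (-1.73 ± 0.23, adjusted p = 0.000177) and 4.15-fold lower without FA (-2.05 ± 0.23, adjusted p = 5.31e-05, or -1.71 ± 0.03 once replicate 3 was left out). ATM, the kinase of double-strand breaks, had 8.67, 8.33 and 8.67 in HT-29 with FA and 9.11, 8.67 and 7.64 without FA. In SW480 it had 9.79, 9.77 and 9.72 with FA and 9.79 on all 3 arrays without FA. Its difference was -1.20 ± 0.29 with FA (adjusted p = 0.00849) and -1.32 ± 0.29 without (adjusted p = 0.00509, or -0.90 ± 0.14 once replicate 3 was left out). CHEK1, the kinase that ATR activates, differed by -0.67 ± 0.12 with FA and -0.76 ± 0.12 without (-0.59 ± 0.06 once replicate 3 was left out). CHEK2, the kinase that ATM activates, had 6.71 on all 3 HT-29 arrays with FA and 6.71, 6.71 and 6.52 without FA, against 6.10 on all 3 SW480 arrays with FA and 6.10, 6.10 and 6.01 without FA. It was 1.53-fold higher in HT-29 with FA (0.61 ± 0.06, adjusted p = 2.98e-05) and 1.49-fold higher without FA (0.58 ± 0.06, adjusted p = 4.51e-05).

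**Figure D3:**
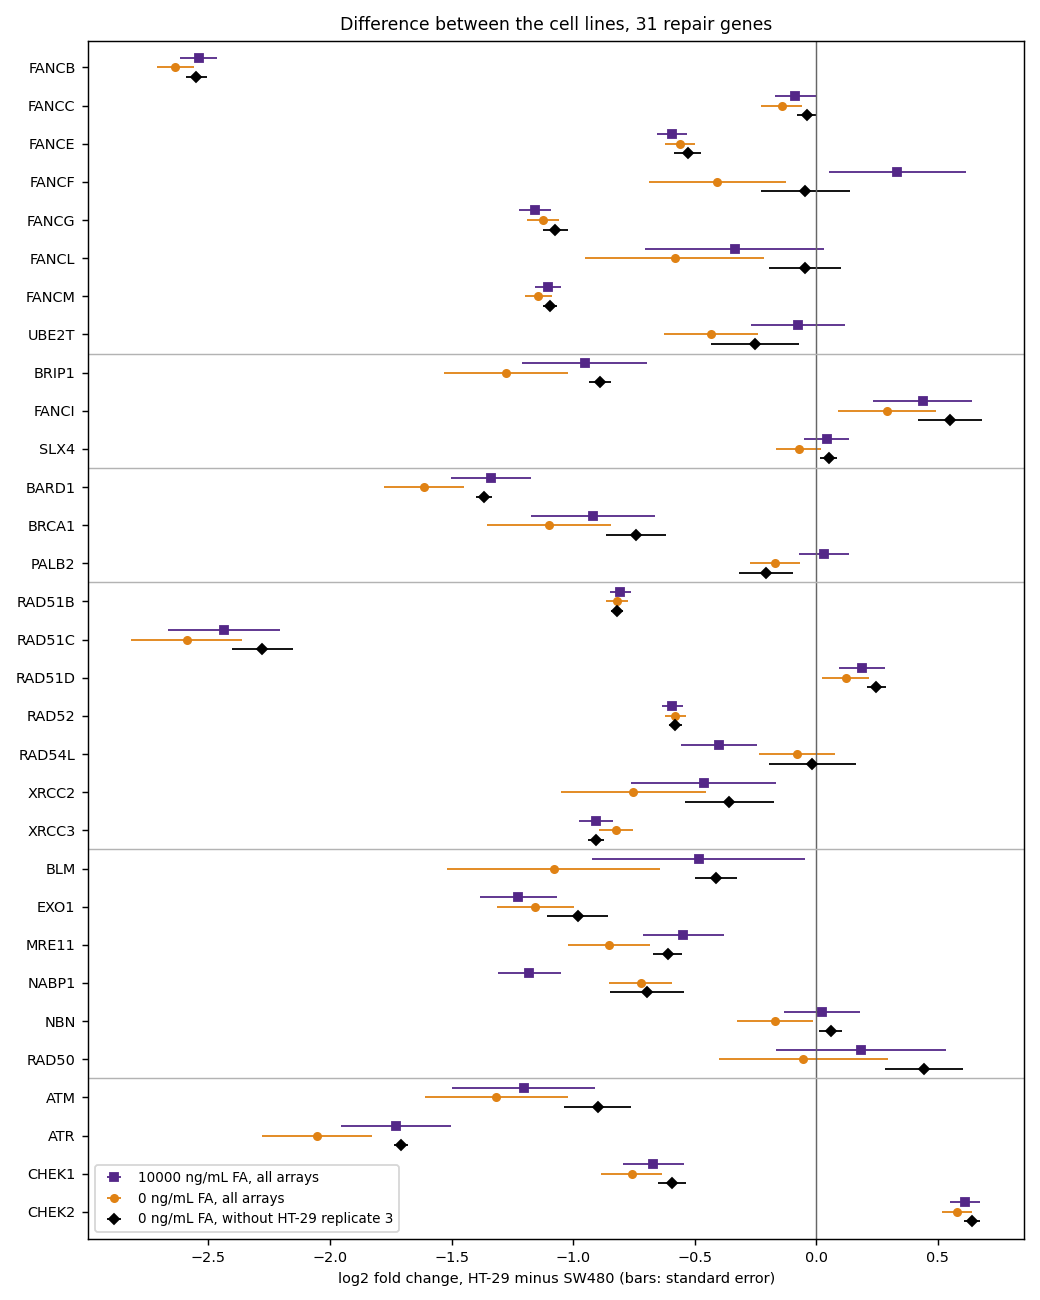
Log2 fold change between the lines (x axis, HT-29 minus SW480, bars are standard errors from limma) of the 31 repair genes (y axis), with FA on all arrays, without FA on all arrays, and without FA once HT-29 replicate 3 is left out. Most points lie left of 0, and for BLM, RAD50 and FANCL the all-array value without FA lies left of the other estimates.

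Many values of these genes are identical to 2 decimals between arrays. For 14 of the 31 genes (45.2%) all 3 arrays of at least 1 group carried the same value, against 23.2% of all clusters and 39.2% of single-symbol clusters. In 16 genes 4 or more of the 6 HT-29 arrays shared a value, and in 11 genes 4 or more of the 6 SW480 arrays did. The SD of a gene within such a group is 0. When clusters with a group of equal values were left out, 17 of the repair genes remained and 6 were lower in HT-29 at each FA level. When each cluster's residual SD was instead raised to at least 0.217, the median of the clusters with no such group, 17 genes were called with FA and 20 without FA. The origin of the equal values was not tested.

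The same comparison was made for 52 further genes of these pathways, of which 48 were measured. Of these, 28 were lower and 5 higher in HT-29 with FA, and 31 were lower and 2 higher without FA, with median differences of -0.43 and -0.48. The called share was 68.8% at each level, beside 41.1% of all clusters with FA and 42.7% without FA. For clusters in the signal range of the repair genes it was 65.8% and 66%. WDR48, which activates the deubiquitinase USP1 that removes ubiquitin from FANCD2, averaged 7.64 in HT-29 with FA and 7.39 without FA, against 9.71 in SW480 with FA and 9.74 without FA (differences -2.06 ± 0.12 and -2.35 ± 0.12). USP1 itself differed by -1.51 ± 0.13 and -1.62 ± 0.13. RMI1 and TOP3A, which dissolve crossed strands with BLM, differed by -1.54 ± 0.11 and -1.64 ± 0.15 with FA, and by -1.66 ± 0.11 and -1.51 ± 0.15 without FA. All 8 of these differences were called. Without FA 2 further genes ranked among the 4 largest called changes, MCM8, a helicase of recombination, at -2.14 ± 0.54 (-1.32 ± 0.12 once replicate 3 was left out), and RPA1, the large subunit of the single-strand binding protein RPA, at -1.63 ± 0.25. In the opposite direction, INTS3, which joins NABP1 in a complex on single-stranded DNA, averaged 8.68 in HT-29 and 7.57 in SW480 with FA (1.12 ± 0.35, adjusted p = 0.0264), and differed by 0.61 ± 0.35 without FA (adjusted p = 0.182). TP53BP1, which restrains end trimming, was higher in HT-29 at both levels (0.66 ± 0.12 with FA and 0.43 ± 0.12 without). In a list of 20 cell division genes 13 were lower and 1 higher in HT-29 with FA, and 16 were lower and 1 higher without FA. These made up 70% and 85% of the list, beside the same shares of all clusters as above. The median differences of the list were -1.28 and -1.55. The part of cell division in the differences of the repair genes was not tested.

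The second comparison asked whether FA changed the repair genes within a line, as the mean log2 signal of FA-treated arrays minus that of untreated arrays. In HT-29 limma called none of the 31 genes, and 0% of all clusters. At an unadjusted p under 0.05 there was 1 gene, FANCF, where 5.44% of all clusters passed. Under the criteria named in the study's methods (a fold change of 1.5 or more with an unadjusted p no higher than 0.05) FANCF passed again, beside 1.36% of all clusters. Higher values with FA were seen for 25 genes, lower ones for 4, and 2 were equal, with a median of 0.22 (all clusters -0.08, clusters of the same signal range 0.03). Without HT-29 replicate 3, FANCF, PALB2 and, as lower, ATM had an unadjusted p under 0.05, beside 2827 of the 67528 clusters. The median was then 0.00, with 14 higher, 10 lower and 7 equal. The prevailing direction therefore rested on that array. Its low values for these genes are given above.

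FANCF, an adaptor of the core complex, showed the largest value in HT-29. It had 7.30, 7.74 and 7.90 with FA and 6.93, 7.26 and 6.01 without FA. The groups did not overlap, and the fold change was 1.88 (log2 0.91 ± 0.28, unadjusted p = 0.00907, adjusted p = 0.587). Without replicate 3 it was 0.55 ± 0.18 (adjusted p = 1). In SW480 FANCF had 7.46, 7.23 and 7.25 with FA and 7.23, 7.21 and 6.98 without FA (0.17 ± 0.28). BLM came next in HT-29 at 0.73 ± 0.44 with all arrays and 0.07 ± 0.09 without replicate 3. RAD50 followed at 0.49 ± 0.35 and -0.01 ± 0.16.

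Groups of HT-29 arrays with and without FA did not overlap for FANCF, PALB2 and EXO1, where 5.25% of all clusters did not overlap. PALB2 had 7.28, 7.55 and 7.28 with FA and 6.99, 7.23 and 7.22 without FA (0.22 ± 0.10, adjusted p = 0.587). It was also higher, by 0.26 ± 0.11, without replicate 3. ATM changed its sign with that array, at 0.08 ± 0.29 with it and -0.33 ± 0.14 without it. In a fit with array weights, FANCF (0.67, adjusted p = 0.0241) and PALB2 (0.33, adjusted p = 0.0305) were called higher and ATM lower (-0.48, adjusted p = 0.0281). The weights, whose estimation stopped before convergence, were 14.8 for untreated replicate 1, 0.772 for replicate 2 and 0.0333 for replicate 3, so that the untreated mean was close to a single array. Of the 31 genes, 15 had a 95% interval of the FA effect within a fold change of 1.5 in either direction with all arrays, and 29 without replicate 3, the exceptions then being ATM and FANCF.

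In SW480 limma called none of the 31 genes, and 0.00592% of all clusters. At an unadjusted p under 0.05 none of the genes passed, against 4.06% of all clusters. In the fit without HT-29 replicate 3, EXO1 (unadjusted p = 0.0216) and RAD51C (0.0487) passed, both higher with FA, beside 5817 of the 67528 clusters. The median was 0.06 (all clusters -0.02), with 23 higher, 6 lower and 2 equal. EXO1 had the largest value, with 8.74, 9.08 and 8.90 with FA and 8.74, 8.36 and 8.66 without FA (0.32 ± 0.16, unadjusted p = 0.0721 with all arrays). RAD54L had 7.03, 7.22 and 7.34 with FA and 7.08, 6.50 and 7.08 without FA (0.31 ± 0.16). Both pairs of groups overlapped. NABP1 was the only gene without overlap, where 7.84% of all clusters did not overlap, with 7.59, 7.66 and 7.47 with FA and 7.41, 7.41 and 7.10 without FA (0.27 ± 0.13, adjusted p = 1). The 95% interval lay within a fold change of 1.5 for 19 genes with all arrays and for 30 in the fit without HT-29 replicate 3, where RAD54L was the exception.

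**Figure D4:**
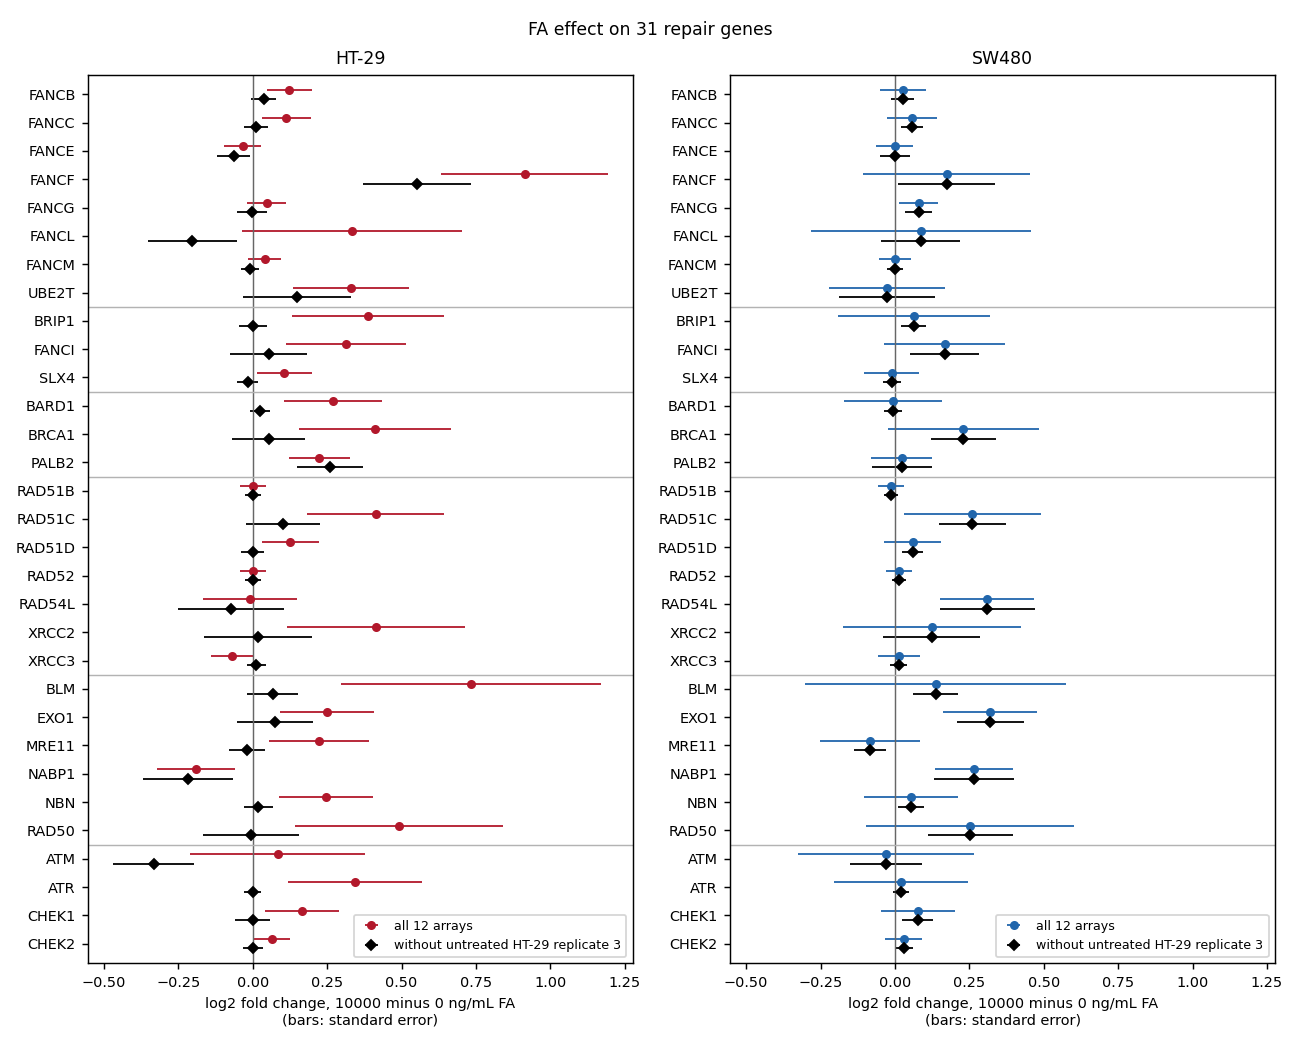
FA effect (x axis, log2 fold change, 10000 minus 0 ng/mL, bars are standard errors from limma) on the 31 repair genes (y axis) in HT-29 and SW480, with all 12 arrays and without untreated HT-29 replicate 3. In HT-29 the points gather around 0 once that array is left out, except FANCF at 0.55, ATM at -0.33 and PALB2 at 0.26. In SW480 leaving it out moves no point and narrows the bars of 29 genes, while those of NABP1 and RAD54L widen slightly.

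The FA effects of the lines were then compared directly (SW480 minus HT-29). None of the 31 genes passed the adjusted threshold in limma, as 0% of all clusters did. At an unadjusted p under 0.05 there was 1 gene, NABP1, beside 3.29% of all clusters. NABP1 entered the list because the study reports it as downregulated by FA in HT-29, together with methylation of its promoter. Its values here are therefore a description with no test, and its unadjusted p is no evidence of a difference. The effect on NABP1 was 0.27 in SW480 and -0.19 ± 0.13 in HT-29 (-0.22 ± 0.15 without replicate 3). The HT-29 value was thus lower with FA, but in limma it did not meet the criteria named in the study's methods (unadjusted p = 0.179 with all arrays). FANCF differed by -0.74 ± 0.40 (adjusted p = 0.939). Without replicate 3 the value for FANCF was -0.38 ± 0.24. The median over the 31 genes was -0.12 with all arrays and 0.06 without that array.

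Under FA, of the 48 further pathway genes none was called in either line, with 4 at an unadjusted p under 0.05 in HT-29 and 2 in SW480, and medians of 0.10 in HT-29 (0.00 without replicate 3) and 0.06 in SW480. None of the 20 cell division genes was called either, with 5 at an unadjusted p under 0.05 in HT-29 and 1 in SW480. At that threshold 5.44% of all clusters passed in HT-29 and 4.06% in SW480. For the cell division genes the median was 0.49 in HT-29, 0.13 there without replicate 3, and 0.16 in SW480.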

How the data were processed

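RNA of HT-29 and SW480 cells, 72 h after the start of culture with FA (10000 ng/mL) or without, was measured on 12 arrays, 3 in each of 4 groups taken from the labels. The log2 values were deposited by the authors after SST-RMA, which subtracts background, normalizes between arrays and summarises probes per transcript cluster, in Transcriptome Analysis Console 4.0. The genome build of the array annotation is not given in the sources used here. The deposited table held 0 missing values and 0 columns that could not be matched to a sample. The files hold no read depth, and the number of arrays limits the precision.

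Group means were fitted with limma 3.58.1 in R 4.3.3 over all 67528 clusters and 12 arrays (8 residual degrees of freedom before moderation), with Benjamini-Hochberg adjustment over all clusters and calls at an adjusted p under 0.05. The script was tested on simulated data. Exact permutation of 3 against 3 arrays cannot reach a two-sided p under 0.1, so none is given. All genes on the list with a single-symbol cluster are described. Of the further pathway genes, at most 4 per comparison and direction are named, largest called change first. The members and lists were chosen with earlier results of these data known. Promoter sequences are from RefSeq and were searched in Python 3.11.15. Alternatives were separate fits, unmoderated variances, array weights, robust moderation along a variance trend, a replicate block, a filter on low clusters, quantile normalization, median centring, single-symbol clusters, other call rules and leaving out each array. A pair of further alternatives on equal values was chosen after seeing the data. Averaging all clusters of a gene changed nothing, since each gene had 1.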

Additional observations from a re-analysis of the deposited data

How the results depend on the processing

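Genes called with all arrays and the values as deposited kept their direction in all alternatives run. Line differences were called for 18 genes with FA and 18 without under the replicate block, 15 and 18 after median centring, 22 and 21 after quantile normalization, 25 and 16 in separate fits, 22 and 12 with the variance of each cluster alone, 25 and 25 with array weights, and 17 to 22 and 18 to 22 without 1 array. The counts with the variance of each cluster alone leave out CHEK2 with FA and RAD51B and RAD52 without FA, which had no spread to test. With a fold change of at least 2 required as well, 9 and 10 genes remained past the threshold. Without the clusters that hold equal values, fewer genes were tested (17) and 6 and 6 were called. In HT-29 the FA effect was called for 3 genes with array weights and passed the methods' criteria for 1, against 0 with all arrays. In SW480 and in the comparison of the effects the count stayed at 0 in every fit that gave a value. Separate fits and unmoderated variances give no value for the comparison of the effects. Deviations of same-numbered arrays from their group means correlated at -0.28 to 0.40 (median -0.03), with 3 of 18 pairs over 0.1. Differently numbered arrays correlated at -0.34 to 0.32 (median -0.01), with 10 of 36 pairs over 0.1. Whether arrays of the same number were handled together cannot be told from these values.

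The sign turned for genes that were not called with all arrays and the values as deposited, and some of the turned values were themselves called: ATM's FA effect in HT-29 with array weights, and the line difference without FA of NBN and RAD50 with array weights and with quantile normalization, RAD50 also without untreated HT-29 replicate 3. For the FA effect in HT-29, array weights gave -0.48 for ATM and -0.034 for RAD50 and quantile normalization -0.0875 for ATM, and without 1 array ATM ranged over -0.33 to 0.40 and RAD50 over -0.0067 to 0.74. For the line difference with FA, array weights gave -0.028 for PALB2, quantile normalization 0.22 for FANCC, 0.067 for FANCL and 0.33 for UBE2T, and centring 0.0033 for FANCC and 0.013 for UBE2T. Without 1 array NBN ranged over -0.01 to 0.043 and PALB2 over -0.06 to 0.09. For the line difference without FA, array weights gave 0.12 for NBN, 0.41 for RAD50 and 0.049 for SLX4. Quantile normalization gave 0.10 for FANCC, 0.28 for NBN, 0.26 for PALB2, 0.52 for RAD50, 0.27 for RAD54L, 0.11 for SLX4 and 0.047 for UBE2T. Without 1 array NBN ranged over -0.31 to 0.058, RAD50 over -0.30 to 0.44, RAD54L over -0.27 to 0.017 and SLX4 over -0.14 to 0.05. The cause was not tested. Centring moved the median FA effect in HT-29 over all clusters to 0.07, against -0.08 as deposited, and that of the repair genes to 0.38, against 0.22.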
